A study of Homo sapiens with 6 samples.

Results

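Lysosome and autophagy genes were examined in the human cell line MDA-MB-231, which was established from a triple-negative breast cancer, after knockdown of NRDE2, the nuclear partner of the RNA helicase MTREX. The set holds 55 genes chosen by the known function of their products and found by an equal gene name in a deposited table of 25365 rows. Of these, 54 were among the 11789 genes tested. Cells were given 20 nM siRNA with lipofectamine RNAiMAX for 48 h, either si-NRDE2-2 (Ambion s30064), directed at NRDE2, or the negative control si-Control (Ambion AM4611), with 3 libraries in each group. Poly(A) libraries were made from 500 ng of total RNA with the TruSeq Stranded mRNA kit. A single siRNA against NRDE2 was used, so loss of NRDE2 and other effects of that siRNA cannot be told apart. Whether replicates came from separate cultures is not stated. The p-values therefore reflect the variation among these 6 libraries alone, and that variation could be technical.

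The lysosome is an acidic compartment in which hydrolases break down proteins, lipids and sugars, and autophagy brings cytoplasm to it in double-membrane autophagosomes. A V-type proton ATPase acidifies the lumen, and membrane proteins such as LAMP1 line it. TFEB, TFE3 and MITF, the MiT/TFE factors, bind the CLEAR element, an E-box with the core CACGTG, in promoters of many lysosomal and autophagy genes, and the kinase complex TORC1 holds them in the cytoplasm when nutrients are plentiful.

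Values are FPKM (fragments divided by transcript length and by the sequencing depth of the library) as the authors deposited them. Each library is given by its FPKM, and differences are log2 ratios (si-NRDE2-2 over si-Control) ± SE on the log2(FPKM + 0.1) scale, tested with limma and called at an adjusted p under 0.05. Estimated depth was 40300000 to 51200000 fragments in the si-NRDE2-2 libraries and 48500000 to 55400000 in the si-Control libraries. NRDE2 was at 0.230, 0.234 and 0.229 FPKM in si-NRDE2-2 cells and 4.39, 4.45 and 3.80 FPKM in si-Control cells (log2 fold change -3.70 ± 0.10, limma adjusted p = 4.5e-09). The labelled line was set against its markers. The mesenchymal marker VIM averaged 1131 ± 17.6 FPKM in si-NRDE2-2 cells and 1200 ± 64.9 FPKM in si-Control cells (SD, n = 3 each). The 7 mesenchymal and basal markers summed to 2452 to 2502 FPKM in si-NRDE2-2 libraries and 2391 to 2562 FPKM in si-Control libraries, with CD44 and ANXA1 called higher and AXL and FOSL1 called lower. The 9 luminal markers summed to 635 to 658 FPKM in si-NRDE2-2 libraries and 580 to 632 FPKM in si-Control libraries, nearly all from the keratin genes KRT8 (314 ± 6.46 FPKM in si-NRDE2-2 cells and 314 ± 15.5 FPKM in si-Control cells) and KRT18 (314 ± 7.41 FPKM in si-NRDE2-2 cells and 273 ± 12.3 FPKM in si-Control cells, called higher). Of the rest, the receptor genes ESR1 and PGR were under 1 FPKM throughout, as were FOXA1 and CDH1, while ERBB2, EPCAM and GATA3 averaged 2.09 to 12.8 FPKM in each group. Markers of other cell types stayed low. The 5 leukocyte markers summed to 3.17 to 3.24 FPKM in si-NRDE2-2 libraries and 1.74 to 2.42 FPKM in si-Control libraries, the 3 endothelial markers to 1.004 to 1.230 FPKM in si-NRDE2-2 libraries and 0.569 to 0.734 FPKM in si-Control libraries, and the 4 fibroblast markers to 1.87 to 2.02 FPKM in si-NRDE2-2 libraries and 1.85 to 1.98 FPKM in si-Control libraries. Their part in the results was not tested. Of these 12 markers, 9, among them PTPRC, CDH5 and PDGFRA, were under 1 FPKM in every library, and 0 were at 0 in all of them.

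The set as a whole changed little. Of 54 tested members, 16 rose and 8 fell, so 44.4% were called, beside 44.0% of all tested genes. Members were called higher in 29.6% of cases, against 20.9% of all tested genes, and lower in 14.8%, against 23.0%. The called changes were small: 5 members (NAGLU, RB1CC1, ATG2A, WIPI1 and ATG12) were called with a change of at least 1.25-fold, or 9.26% of those tested, beside 17.8% of all tested genes. The groups did not overlap for 28 members (51.9%), near the 53.5% of all tested genes. The median log2 fold change was 0.04 over members and -0.02 over all tested genes, and the median absolute change was 0.10 over members and 0.14 over all tested genes. Log2 fold changes of members ran from -0.57 (WIPI1) to 0.59 (ATG12). None of the 54 passed the filter through 1 group alone, since each averaged at least 3.13 FPKM in both groups. FPKM is relative to all mapped fragments, so a change in the RNA content of the cells, or in how many cells express a gene, cannot be told apart from a change per cell in these bulk libraries.

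The counts depended on single libraries. Without si-NRDE2-2 replicate 3, 10 members (18.5%) were called higher and 4 (7.41%) lower, beside 17.2% and 18.8% of all tested genes. Without si-Control replicate 1, 10 (18.5%) were higher and 5 (9.26%) lower, beside 18.03% and 20.3% of all tested genes. In both cases the share of members called higher was close to that of all tested genes. Without si-NRDE2-2 replicate 2, 12 were higher (22.2%, beside 16.3%) and 3 lower (5.56%, beside 17.6%). Without si-Control replicate 3, 23 were higher (42.6%, beside 22.7%) and 5 lower (9.26%, beside 23.9%). si-Control replicate 3 had the highest value of its group for 37 of 54 members (68.5%), against 42.9% of all tested genes, and the median over members was 0.07 without it. Deposited FPKM totals were uneven, at 448986, 458252 and 486271 in si-Control replicates 1, 2 and 3. In si-NRDE2-2 replicates 1, 2 and 3 they were 470165, 464667 and 461891.

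Some calls also ended under other processing of all 6 libraries. With libraries scaled to equal FPKM totals, TFEB, NPC1, ATP6V1C1, ULK1, PIK3C3 and ATG16L1 missed the threshold (limma adjusted p = 0.0539 to 0.0853). With no filter on low values GAA (0.0537), MCOLN1 (0.0530) and ULK1 (0.115) did, and with no variance trend NPC1 (0.0550), ATP6V1C1 (0.0538) and ULK1 (0.0763) did. NPC1 (0.0547) and ULK1 (0.0602) missed it after quantile normalization, as did ULK1 with equal medians (0.0553).

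**Figure D1:**
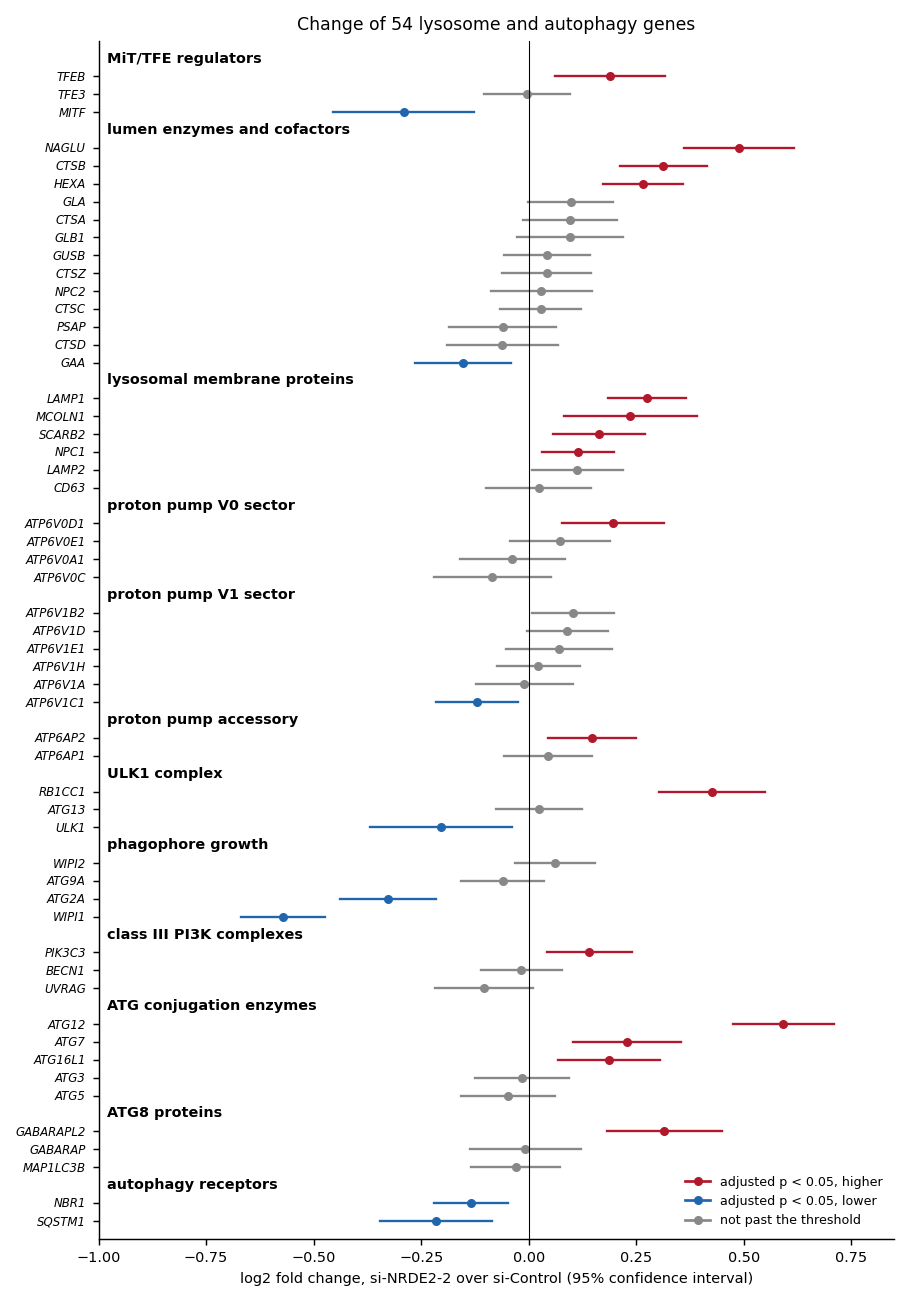
Log2 fold change of si-NRDE2-2 over si-Control (x axis) with its 95% confidence interval for the 54 tested members, grouped by role. Red marks the 16 members called higher and blue the 8 called lower, with WIPI1 at -0.57 and ATG12 at 0.59 as the extremes.

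Of the 3 MiT/TFE regulators, 1 was called higher (33.3%), 1 was called lower (33.3%) and 1 was not called. Among all tested genes, 20.9% were called higher and 23.0% lower, and 53.5% had groups that did not overlap. TFEB was at 5.27, 5.03 and 5.17 FPKM in si-NRDE2-2 cells and 4.41, 4.71 and 4.43 FPKM in si-Control cells, a rise of 0.19 ± 0.06 (limma adjusted p = 0.0221). All si-NRDE2-2 libraries lay above all si-Control libraries. TFE3, the most abundant of the 3, was at 48.3, 44.2 and 44.7 FPKM in si-NRDE2-2 cells and 45.9, 45.3 and 46.2 FPKM in si-Control cells. Its groups overlapped, and its log2 fold change of -0.004 had a 95% interval from -0.10 to 0.10 (adjusted p = 0.952). MITF, known as the master regulator of melanocytes, was at 2.96, 3.09 and 3.34 FPKM in si-NRDE2-2 cells and 4.17, 3.74 and 3.65 FPKM in si-Control cells. It fell by 0.29 ± 0.07 on the log2 scale (limma adjusted p = 0.00895), with no overlap. The rise of TFEB missed the threshold without si-NRDE2-2 replicate 3 (adjusted p = 0.0635) or without si-Control replicate 1 (0.0749).

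Among the lumen enzymes and their cofactors, 3 of 13 tested members rose (23.1%) and 1 fell (7.69%), with a median of 0.04. Of all tested genes, 20.9% were called higher and 23.0% lower. NAGLU, which removes N-acetylglucosamine from heparan sulfate, had the largest rise: 12.2, 10.9 and 11.5 FPKM in si-NRDE2-2 cells against 7.942, 8.001 and 8.594 FPKM in si-Control cells (0.49 ± 0.06, limma adjusted p = 6.5e-05). CTSB, the cysteine protease cathepsin B, was at 137, 131 and 136 FPKM in si-NRDE2-2 cells and 105, 107 and 113 FPKM in si-Control cells (0.31 ± 0.05, adjusted p = 2.8e-04). HEXA, the alpha subunit of beta-hexosaminidase, was at 35.1, 34.7 and 36.3 FPKM in si-NRDE2-2 cells and 28.9, 28.9 and 30.3 FPKM in si-Control cells (0.27 ± 0.04, adjusted p = 5.0e-04). For all 3, every si-NRDE2-2 library was above every si-Control library, and each call held under all 16 alternatives run. GAA, the acid alpha-glucosidase of glycogen, went the other way, at 12.48, 12.05 and 11.64 FPKM in si-NRDE2-2 cells and 13.29, 12.93 and 14.03 FPKM in si-Control cells (-0.15 ± 0.05, adjusted p = 0.0307). Its groups did not overlap, yet the call was lost without si-NRDE2-2 replicate 2 (adjusted p = 0.0901) or 3 (0.111) and without si-Control replicate 1 (0.0617) or 3 (0.0776).

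The most abundant lumen members were not called. CTSD, the aspartic protease cathepsin D, had the highest level of any member, with 628, 568 and 562 FPKM in si-NRDE2-2 cells and 600, 605 and 628 FPKM in si-Control cells. Its log2 fold change was -0.06, with a 95% interval from -0.19 to 0.07. PSAP, the precursor of the saposins that help enzymes reach lipids, was at -0.06 as well. The remaining uncalled members, namely CTSA, CTSC, CTSZ, GLA, GLB1, GUSB and the cholesterol carrier NPC2, had log2 fold changes between 0.03 and 0.10. Without si-Control replicate 3, GLB1 (adjusted p = 0.0175), GLA (0.0306) and CTSA (0.0494) were called higher. The sialidase gene NEU1 was listed at 0 in every library. So was RPS18, which encodes a ribosomal protein and is used by every cell, so a value of 0 may be a failed estimate and gives no level for NEU1.

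**Figure D2:**
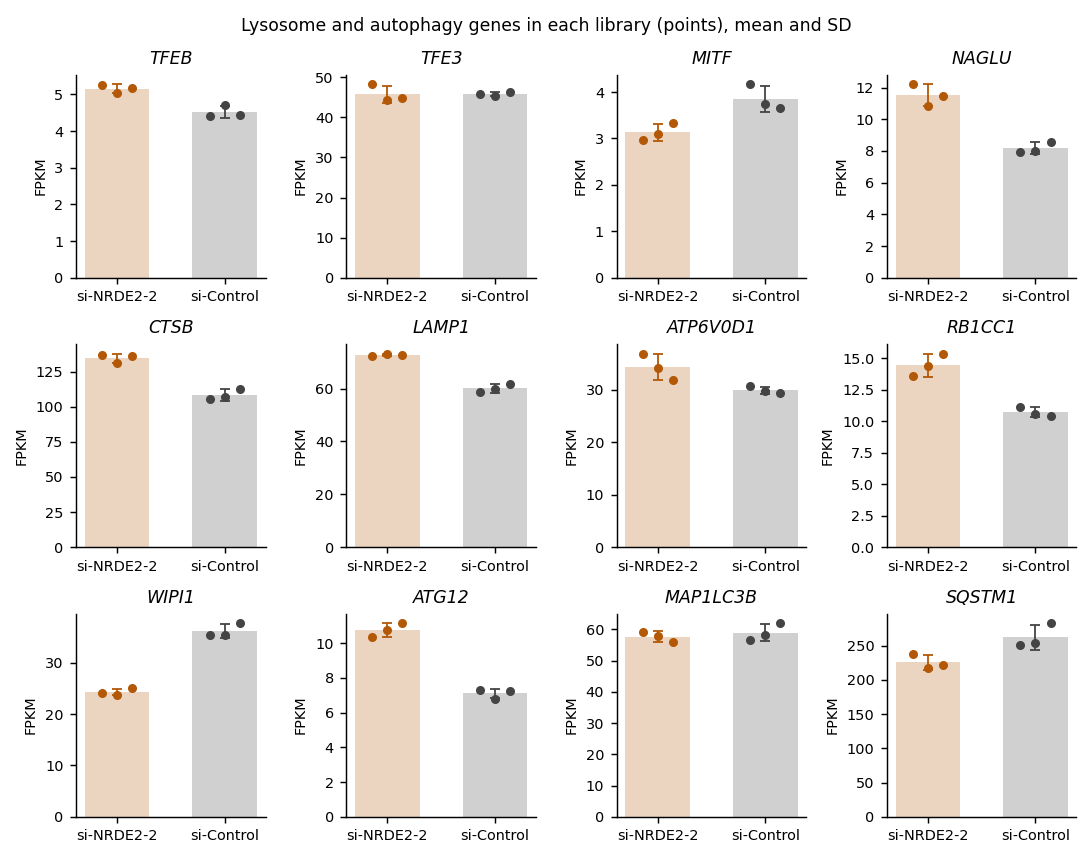
FPKM (y axes, each from 0) of 12 members in each library, with bars for the mean and error bars for the SD of 3 libraries, si-NRDE2-2 left and si-Control right. The groups overlap for TFE3 and MAP1LC3B and do not overlap for the other 10.

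Of the 6 lysosomal membrane proteins, 4 rose (66.7%) and 0 fell, beside 20.9% and 23.0% of all tested genes. All 6 had positive log2 fold changes, with a median of 0.14. LAMP1, a heavily glycosylated protein that lines the lysosome, was at 72.5, 73.2 and 72.5 FPKM in si-NRDE2-2 cells and 58.7, 59.8 and 61.9 FPKM in si-Control cells (0.27 ± 0.04, limma adjusted p = 3.1e-04). The 3 si-NRDE2-2 libraries lay within 1 FPKM of each other and above every si-Control library. SCARB2, also known as LIMP-2, was at 31.5, 33.5 and 35.2 FPKM in si-NRDE2-2 cells and 30.5, 29.2 and 29.6 FPKM in si-Control cells (0.16 ± 0.05, adjusted p = 0.0181). MCOLN1, a calcium channel of the lysosome, was at 9.95, 9.25 and 8.66 FPKM in si-NRDE2-2 cells and 7.19, 8.05 and 8.36 FPKM in si-Control cells (0.24 ± 0.07, adjusted p = 0.0182). Its lowest si-NRDE2-2 library was close to its highest si-Control library. NPC1, which exports cholesterol from the lysosome, was at 54.8, 54.9 and 54.8 FPKM in si-NRDE2-2 cells and 50.8, 50.9 and 50.3 FPKM in si-Control cells (0.11 ± 0.04, adjusted p = 0.0318).

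Except for LAMP1, these calls rested on single libraries. SCARB2 missed the threshold without si-NRDE2-2 replicate 2 (adjusted p = 0.0629) or 3 (0.0848) or si-Control replicate 2 (0.0773), and MCOLN1 without si-NRDE2-2 replicate 1 (0.0612) or si-Control replicate 1 (0.0737). NPC1 missed it without si-NRDE2-2 replicate 2 (0.118) or 3 (0.0940) or si-Control replicate 1 (0.0636) or 2 (0.0941). LAMP2, the other main lining glycoprotein, did not overlap between groups but was not called (0.11, 95% interval 0.01 to 0.22, adjusted p = 0.0761), except without si-NRDE2-2 replicate 1 (0.0179). The tetraspanin CD63 was at 0.02.

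Few proton pump genes were called. Of its 12 members, 2 rose (16.7%) and 1 fell (8.33%), beside 20.9% and 23.0% of all tested genes, and the median was 0.06. The V0 sector, which carries protons through the membrane, had 1 call among 4 members. ATP6V0D1, a subunit at the joint of both sectors, was at 36.9, 34.2 and 31.9 FPKM in si-NRDE2-2 cells and 30.7, 29.7 and 29.4 FPKM in si-Control cells (0.20 ± 0.05, limma adjusted p = 0.0128). Its call held under all 16 alternatives. The V1 sector, which hydrolyses ATP in the cytosol, had 1 call among 6 members. ATP6V1C1, which links the sectors, was at 14.3, 14.8 and 14.7 FPKM in si-NRDE2-2 cells and 16.01, 15.62 and 15.99 FPKM in si-Control cells (-0.12 ± 0.04, adjusted p = 0.0414), and this call was lost when any 1 of the 6 libraries was left out (adjusted p = 0.0611 to 0.112). The accessory subunit ATP6AP2, also known as the prorenin receptor, was at 76.1, 79.7 and 83.2 FPKM in si-NRDE2-2 cells and 71.2, 70.4 and 73.9 FPKM in si-Control cells (0.15 ± 0.05, adjusted p = 0.0240). These groups did not overlap, and the call was lost without si-NRDE2-2 replicate 2 (0.0817) or 3 (0.118) or si-Control replicate 1 (0.0570) or 2 (0.101).

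The 9 uncalled pump members had log2 fold changes from -0.08 (ATP6V0C, the proton-binding ring subunit) to 0.10 (ATP6V1B2, an ATP-hydrolysing subunit). Without si-Control replicate 3, ATP6V1E1 (adjusted p = 0.0138), ATP6V0E1 (0.0142), ATP6V1B2 (0.0299) and ATP6V1D (0.0302) were called higher. Without si-NRDE2-2 replicate 1, ATP6V0C was called lower (0.0271). Summed over the 12 members, pump levels were 671, 653 and 657 FPKM in si-NRDE2-2 cells and 616, 624 and 662 FPKM in si-Control cells, and the groups overlapped.

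Of the 20 autophagy members, 6 rose (30%) and 5 fell (25%), beside 20.9% and 23.0% of all tested genes. The lower calls numbered 2 without si-NRDE2-2 replicate 2 and 3 without si-NRDE2-2 replicate 3, beside 17.6% and 18.8% of all tested genes. The higher calls numbered 4 without si-NRDE2-2 replicate 3 or without si-Control replicate 1, beside 17.2% and 18.03%. In the ULK1 complex, the kinase assembly that starts an autophagosome, RB1CC1 (the scaffold protein FIP200) was at 13.6, 14.4 and 15.4 FPKM in si-NRDE2-2 cells and 11.2, 10.6 and 10.4 FPKM in si-Control cells (0.43 ± 0.06, limma adjusted p = 1.3e-04). The kinase gene ULK1 was at 11.4, 9.44 and 9.08 FPKM in si-NRDE2-2 cells and 11.6, 11.2 and 11.4 FPKM in si-Control cells (-0.20 ± 0.07, adjusted p = 0.0467). Its groups overlapped, since si-NRDE2-2 replicate 1 lay among the si-Control libraries. The ULK1 call was lost without si-NRDE2-2 replicate 2 (adjusted p = 0.153) or 3 (0.162) and without any 1 si-Control library (0.0869 to 0.106). ATG13, which binds ULK1 to RB1CC1, was at 0.02.

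Members of phagophore growth, the expansion of the first membrane, included the largest fall in the set. WIPI1, which binds the lipid PI3P on the growing membrane, was at 24.1, 23.7 and 25.1 FPKM in si-NRDE2-2 cells and 35.5, 35.4 and 37.7 FPKM in si-Control cells. Its level in si-NRDE2-2 cells was 67.2% of that in si-Control cells (-0.57 ± 0.04, limma adjusted p = 3.0e-06). ATG2A, which transfers lipids to the membrane, was at 12.1, 11.2 and 11.2 FPKM in si-NRDE2-2 cells and 15.0, 14.4 and 14.1 FPKM in si-Control cells (-0.33 ± 0.05, adjusted p = 4.2e-04). Both had no overlap between groups and were called under all 16 alternatives. The other 2 members were not called: ATG9A, the membrane protein of the seed vesicles, was at -0.06 and WIPI2, the paralog of WIPI1, at 0.06.

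In the class III PI3K complexes, which make PI3P, the catalytic subunit gene PIK3C3 was at 21.0, 22.5 and 22.9 FPKM in si-NRDE2-2 cells and 20.0, 20.1 and 20.1 FPKM in si-Control cells (0.14 ± 0.05, limma adjusted p = 0.0260). The 3 si-Control libraries were nearly equal and all below the si-NRDE2-2 libraries. The call was lost without si-NRDE2-2 replicate 2 (adjusted p = 0.108) or 3 (0.107) or si-Control replicate 1 (0.0635) or 2 (0.0806). BECN1 (Beclin 1), a regulatory subunit, was at -0.02. UVRAG, the subunit that marks the late complex, was at -0.10 without a call (95% interval -0.22 to 0.01).

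The conjugation enzymes, which attach ATG8 proteins to lipid, had 3 of 5 members higher (60%) and 0 lower, with a median of 0.19. Of all tested genes, 20.9% were called higher and 23.0% lower. ATG12, the ubiquitin-like protein joined to ATG5, had the largest rise of the whole set: 10.4, 10.8 and 11.1 FPKM in si-NRDE2-2 cells against 7.28, 6.79 and 7.24 FPKM in si-Control cells. This was 151% of the si-Control level (0.59 ± 0.05, limma adjusted p = 9.2e-06). ATG7, the E1-like enzyme, was at 5.98, 6.13 and 5.77 FPKM in si-NRDE2-2 cells and 5.17, 4.87 and 5.19 FPKM in si-Control cells (0.23 ± 0.06, adjusted p = 0.00780). ATG16L1, which positions the conjugation machinery on the membrane, was at 7.50, 7.28 and 7.66 FPKM in si-NRDE2-2 cells and 6.46, 6.82 and 6.41 FPKM in si-Control cells (0.19 ± 0.05, adjusted p = 0.0156). None of these 3 overlapped between groups. The ATG16L1 call was lost without si-NRDE2-2 replicate 3 (adjusted p = 0.0621) or si-Control replicate 1 (0.0534). ATG3, the E2-like enzyme, was at -0.02 and ATG5 at -0.05, both uncalled.

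Of the 3 ATG8 proteins themselves, which coat the autophagosome, 1 rose (33.3%, beside 20.9% of all tested genes). GABARAPL2 was at 41.6, 41.2 and 43.5 FPKM in si-NRDE2-2 cells and 34.1, 30.8 and 36.8 FPKM in si-Control cells (0.31 ± 0.06, limma adjusted p = 0.00172), with no overlap. MAP1LC3B (LC3B), the usual marker of autophagosomes, was at 59.2, 57.9 and 55.9 FPKM in si-NRDE2-2 cells and 56.5, 58.3 and 61.9 FPKM in si-Control cells. Its groups overlapped, and its log2 fold change was -0.03 with a 95% interval from -0.13 to 0.07. MAP1LC3B2 is a near-identical copy with a row of its own, so the value of MAP1LC3B is uncertain where reads were split between them. GABARAP was at -0.008 and not called.

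Both autophagy receptors among the members, which tie cargo to ATG8 proteins, fell, beside 23.0% of all tested genes called lower. In the list of other autophagy receptors described below, 3 of 12 tested genes rose, 0 fell and 9 were not called. SQSTM1 (p62) was at 237, 217 and 222 FPKM in si-NRDE2-2 cells and 250, 253 and 282 FPKM in si-Control cells (-0.22 ± 0.06, limma adjusted p = 0.0127). NBR1 was at 42.9, 43.2 and 43.1 FPKM in si-NRDE2-2 cells and 47.8, 46.4 and 47.8 FPKM in si-Control cells (-0.14 ± 0.04, adjusted p = 0.0161). Each si-NRDE2-2 library lay below each si-Control library for both genes. Groups did not overlap for 53.5% of all tested genes. Without si-NRDE2-2 replicate 2 neither passed (adjusted p = 0.0676 for SQSTM1 and 0.0651 for NBR1), and without si-NRDE2-2 replicate 3 NBR1 did not (0.0542).

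Promoters of the members were searched for the E-box that MiT/TFE factors bind, in the RefSeq table (GRCh38.p14) of 250 bases before to 50 bases after each gene start, which held 43 members. The motifs searched were CACGTG and the longer TCACGTGA, which contains the first. Each reads the same on both strands. CACGTG was present in 9 of 43 member promoters (20.9%), in 7.43% of 27305 promoters in the table and in 10.3% of the 9414 promoters of tested genes. TCACGTGA was present in 6 of 43 (14%), against 1.04% of all promoters and 2.09% of those of tested genes. Below are the stretches of the 4 called members that hold the core, shown because their calls differ in direction, with each core in capitals and 5′ to 3′ on the gene's strand: LAMP1 at chr13:113297035-113297255 (plus strand), MCOLN1 at chr19:7522571-7522627 (plus), ATP6V0D1 at chr16:67481199-67481228 (minus) and GAA at chr17:80101493-80101567 (plus).
LAMP1: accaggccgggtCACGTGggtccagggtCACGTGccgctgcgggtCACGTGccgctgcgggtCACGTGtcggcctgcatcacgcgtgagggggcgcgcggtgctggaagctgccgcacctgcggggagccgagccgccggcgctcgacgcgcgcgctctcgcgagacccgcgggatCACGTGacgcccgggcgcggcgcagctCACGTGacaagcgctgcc
MCOLN1: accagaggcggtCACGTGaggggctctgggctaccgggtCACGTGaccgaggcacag
ATP6V0D1: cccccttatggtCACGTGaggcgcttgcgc
GAA: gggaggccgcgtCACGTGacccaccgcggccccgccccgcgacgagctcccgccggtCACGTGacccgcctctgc
LAMP1 had 6 cores, 2 of them in the longer form. MCOLN1 and GAA had 2 each and ATP6V0D1 had 1, all in the longer form.

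Calls among members that hold the core went in both directions, but the lower 1 was GAA alone. Of the 9 members that hold the core, 3 were called higher (LAMP1, MCOLN1 and ATP6V0D1) and 1 was called lower (GAA). Another 4 (CTSA, CTSD, CD63 and ATG3) were not called, and NEU1 was not tested. The GAA call was lost under 6 of the 16 alternatives and the MCOLN1 call under 3. Of the 34 members searched that lack the core, 9 were called higher, 6 lower and 19 were not called. Among all tested genes, 20.9% were called higher and 23.0% lower. A window without these letters says nothing of where the factors bind.

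**Figure D3:**
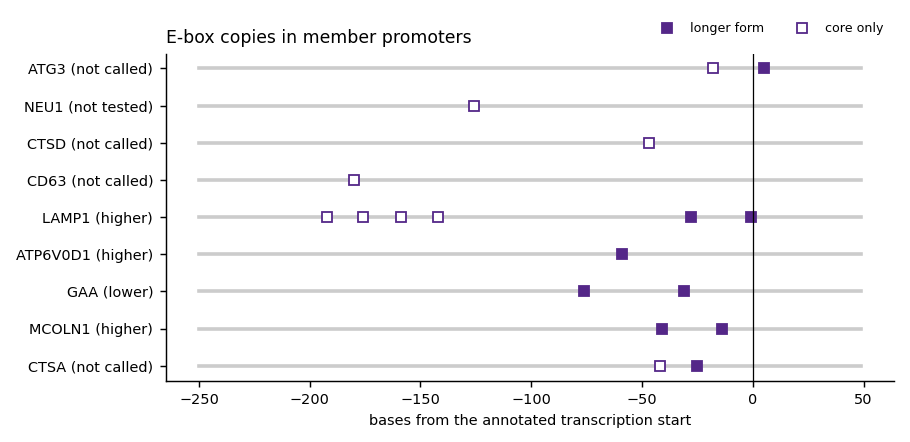
Position of each CACGTG core (squares, filled for the longer TCACGTGA) relative to the annotated transcription start (x axis, bases) in the 9 member promoters that hold it, with the call of each gene beside its name. LAMP1 has 6 cores. Both called directions occur among genes with the longer form, the lower 1 in GAA alone, whose call was lost under 6 of 16 alternatives.

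GACGTA was also counted in the annotated 3′ UTRs, together with GACAGTA as well as the heptamer GACTGTA, because an earlier look at these same fold changes had picked them, so the shares are no independent evidence. At least 1 of them was present in 19.6% of 11089 tested genes with a 3′ UTR, in 35.1% of the genes called higher and in 10.9% of those called lower. Among members the share was 3 of 16 called higher (LAMP1, ATG7 and ATG12), 1 of 8 called lower (SQSTM1) and 4 of 30 not called (CTSA, ATP6V0E1, ATG3 and MAP1LC3B). In percent, these were 18.8%, 12.5% and 13.3%. ATG12, with the largest rise, had 3 copies of GACTGTA, and MAP1LC3B, which was not called, had 2. The part of these sequences in the result was not tested.

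A list of 166 other genes of the same pathways, chosen by function, was read from the same fit. Of 155 tested, 28 rose and 39 fell, or 18.1% and 25.2%, near the 20.9% and 23.0% of all tested genes, with a median of -0.002. Changes of at least 1.25-fold were called for 22, or 14.2%. At least 1 of the 3′ UTR sequences named above was present in 10 of the 28 that rose (35.7%, beside 35.1% of all genes called higher), in 3 of the 39 that fell and in 17 of 88 not called. Of the risers named in what follows, VAMP7, RAB7A, NRBF2, ATG4A, VMP1, PINK1, CTNS and SORT1 carry at least 1, and RPTOR, GALNS, BNIP3, BNIP3L and CD68 carry 0. The largest rise and the largest fall of the list lay in tethering and fusion. There 3 of 11 genes rose (27.3%) and 2 fell (18.2%). VAMP7, a SNARE of late endosome and lysosome fusion, averaged 15.2 ± 0.854 FPKM in si-NRDE2-2 cells and 5.06 ± 0.130 FPKM in si-Control cells (SD, n = 3 each; log2 fold change 1.57 ± 0.06, limma adjusted p = 1.2e-08). RAB7A, the small GTPase of late endosomes, averaged 101 ± 1.04 FPKM in si-NRDE2-2 cells and 52.0 ± 1.71 FPKM in si-Control cells (0.96 ± 0.04, adjusted p = 5.1e-08). VPS11, a core subunit of the HOPS tethering complex, averaged 12.2 ± 0.241 FPKM in si-NRDE2-2 cells and 20.5 ± 0.240 FPKM in si-Control cells (-0.74 ± 0.04, adjusted p = 3.8e-07).

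The other autophagy core genes had 6 of 25 higher (24%) and 6 lower (24%), beside 20.9% and 23.0% of all tested genes. The lower calls numbered 3 without si-NRDE2-2 replicate 2 or without si-Control replicate 2, beside 17.6% and 17.0% of all tested genes. The higher calls numbered 4 without si-NRDE2-2 replicate 2 or 3 and without si-Control replicate 1 or 2, beside 16.3% to 18.03%. NRBF2, a subunit of the early class III PI3K complex, averaged 23.0 ± 0.642 FPKM in si-NRDE2-2 cells and 9.52 ± 0.553 FPKM in si-Control cells (1.26 ± 0.05, limma adjusted p = 3.4e-08). ATG4A, a protease that processes ATG8 proteins, rose by 0.64 ± 0.06 and VMP1, a membrane protein of the endoplasmic reticulum needed for autophagosome formation, by 0.42 ± 0.04. Of the 6 that fell, ATG16L2 was at -0.53 ± 0.08 (adjusted p = 4.4e-04). In the list of other autophagy receptors, which also holds the kinase gene PINK1, 3 of 12 rose (25%, beside 20.9% of all tested genes). None fell, and 9 were not called. The 3 were PINK1, the kinase of mitophagy (0.34 ± 0.05), and the mitophagy receptors BNIP3 (0.30 ± 0.05) and BNIP3L (0.28 ± 0.05). These 3 rose where SQSTM1 and NBR1 fell, but most of the list was not called in either direction.

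TORC1 and nutrient-sensing genes had the most calls in 1 direction, with 15 of 29 lower (51.7%, against 23.0% of all tested genes) and 2 higher, and a median of -0.16. TSC2, which switches TORC1 off through the GTPase RHEB, averaged 8.07 ± 0.529 FPKM in si-NRDE2-2 cells and 12.2 ± 0.433 FPKM in si-Control cells (-0.59 ± 0.06, limma adjusted p = 1.8e-05). FLCN, which activates the Rag GTPases, was lower as well (-0.31 ± 0.05). RPTOR, which brings substrates to TORC1, rose to 7.93 ± 0.129 FPKM in si-NRDE2-2 cells, against 4.51 ± 0.348 FPKM in si-Control cells (0.80 ± 0.06, adjusted p = 3.5e-06). The list thus held genes that activate and genes that restrain TORC1 among those that fell. Its lower calls numbered 9 of 29 without si-NRDE2-2 replicate 3 or si-Control replicate 2, beside 18.8% and 17.0% of all tested genes. They numbered 10 of 29 without si-NRDE2-2 replicate 2, beside 17.6%. With no filter on low values they numbered 10, beside 12.8%, and with the replicate block 11, beside 20.6%.

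The other lumen enzymes had 9 of 35 genes higher (25.7%) and 5 lower (14.3%), beside 20.9% and 23.0% of all tested genes. The sulfatase gene GALNS rose by 0.42 ± 0.06, and the sialate esterase gene SIAE fell by 0.38 ± 0.05. Without si-Control replicate 2 the higher calls numbered 5 of 35 (14.3%), beside 16.3% of all tested genes. Without si-NRDE2-2 replicate 2 or 3 they numbered 6 of 35, beside 16.3% and 17.2%. Among the other membrane proteins, 4 of 22 rose, including the cystine exporter gene CTNS (0.67 ± 0.07) and CD68 (0.22 ± 0.05), and 5 fell, including LAMP3 (-0.49 ± 0.09). These were 18.2% and 22.7% of the 22, near the shares of all tested genes.

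Of 13 genes that sort enzymes to the lysosome, 1 rose, the sorting receptor gene SORT1 (0.35 ± 0.05), and 2 fell, the endocytic receptor gene LRP1 (-0.57 ± 0.08) and the adaptor gene GGA3 (-0.19 ± 0.06). These were 7.69% and 15.4% of the 13, beside 20.9% and 23.0% of all tested genes. GGA3 missed the threshold without si-NRDE2-2 replicate 2 (limma adjusted p = 0.143) or 3 (0.123) or si-Control replicate 1 (0.0737) or 2 (0.134). Without si-Control replicate 3, 4 of the 13 were called lower, beside 23.9% of all tested genes. The remaining proton pump genes had 4 of 8 lower (50%) and 0 higher, beside 23.0% and 20.9% of all tested genes. Their median was -0.18. With only genes averaging at least 5 FPKM kept, 1 was called lower, beside 24.3% of all genes tested in that setting. With 1 library left out, the lower calls numbered 3 to 5, beside 17.0% to 23.9% of all tested genes. ATP6V0D2, a paralog of ATP6V0D1, fell by 0.64 ± 0.07 to 2.64 ± 0.163 FPKM in si-NRDE2-2 cells, against 4.17 ± 0.230 FPKM in si-Control cells. ATP6V0A2 (-0.27 ± 0.06) and ATP6V0E2 (-0.24 ± 0.05) were lower too, while their paralogs among the members were not called (ATP6V0A1 at -0.04 and ATP6V0E1 at 0.07).

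**Figure D4:**
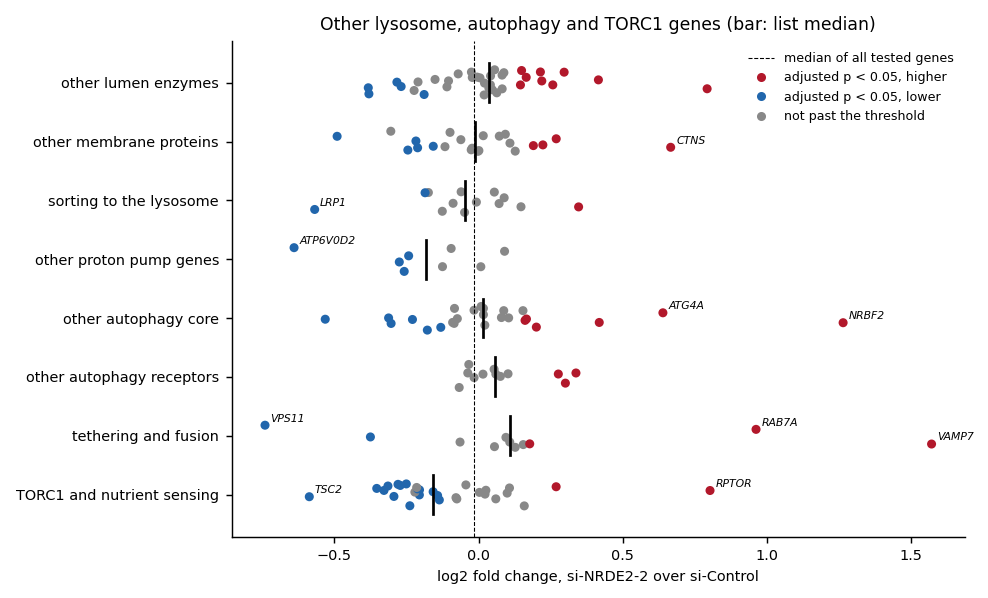
Log2 fold change of si-NRDE2-2 over si-Control (x axis) for the 155 tested genes of the 8 other lists, 1 point per gene, with a bar at each list median and a dashed line at the median of all tested genes. VAMP7 (1.57) and NRBF2 (1.26) lie farthest to the right, VPS11 (-0.74) farthest to the left, and 15 of 29 TORC1 and nutrient-sensing genes are called lower.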

How the data were processed

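RNA from 6 libraries (3 si-NRDE2-2, 3 si-Control) was measured by RNA-seq, and groups were taken from the sample titles. The authors deposited FPKM per gene and library. The submitters' processing notes name hg19, DESeq2 1.10.1 and STAR 2.5.1b without giving their roles. The program behind the FPKM values, its annotation and its strand setting are not given in the sources used here. The table's name speaks of counts, but its values carry decimals, so no count test was run. Another 4 columns, with values in 3 rows, and 28 rows whose names had become dates were not used.

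Values were used as deposited. Genes reaching 1 FPKM in 3 or more libraries, small RNAs left out, were tested on log2(FPKM + 0.1) with limma 3.58.1 (R 4.3.3, trended robust prior variance, two-sided, Benjamini-Hochberg adjustment over all tested genes). The script was tested on simulated data. Depth came from the steps of low values, which were whole multiples within a tolerance of 0.02 for 56.4% of 2291 low genes, and its scale rests on 723 genes. The members and lists were chosen with earlier results of these data known. Every member could be named, with values per library for the MiT/TFE factors, SQSTM1, MAP1LC3B and up to 4 called members per class by smallest adjusted p, plus CTSD, NEU1 and summed pump levels, added after their values were seen. Of the other lists, up to 3 genes each were named by smallest adjusted p, and 1 such gene is not reported here. Motif counts used RefSeq promoters (GRCh38.p14) and 3′ UTRs of GENCODE (GRCh38), with 1 transcript per gene, and gene coordinates were not taken from the hg19 table. Replicate numbers did not pair the libraries. Alternatives covered the pseudocount, the filter, the scaling, the prior variance, GC content and length, a replicate block and each library left out.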

Additional observations from a re-analysis of the deposited data

How the results depend on the processing

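The results were recomputed under 16 alternatives, of which 6 left out 1 library each. Of the 24 called members, 12 were called under all of them (MITF, CTSB, HEXA, NAGLU, LAMP1, ATP6V0D1, RB1CC1, ATG2A, WIPI1, ATG7, ATG12 and GABARAPL2, where the filter kept them), 12 were lost under at least 1, and 14 uncalled members were called under at least 1. No called member changed direction. With 1 library left out, members called higher numbered 10 to 23 (16 with all libraries), members called lower 3 to 8 (8 with all libraries), and the median log2 fold change over members ran from 0.024 to 0.073 (0.042 with all libraries). Under the other 10 alternatives members called higher numbered 12 to 23 and lower 6 to 9. Removing GC and length trends gave 23 higher (42.6%, beside 26.4% of all tested genes) and 9 lower (16.7%, beside 29.8%). Equal FPKM totals gave 12 higher (22.2%, beside 18.9%) and 6 lower (11.1%, beside 21.5%). Medians of the MiT/TFE regulators, the V0 sector, the class III PI3K complexes, the ATG8 proteins and all autophagy members were near 0 and changed sign with single alternatives, so no direction is given for them. Depth limits the low members most: TFEB had an estimated 541 fragments in its shallowest library.

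The replicate block was run although the numbers did not pair the libraries (correlations of same-numbered deviations -0.12, 0.11 and -0.12). With the replicate block 13 members were higher (24.1%) and 6 lower (11.1%), beside 19.1% and 20.6% of all tested genes, and TFEB (adjusted p = 0.0505), GAA (0.0621), NPC1 (0.0823), ATP6V1C1 (0.0911) and PIK3C3 (0.05003) missed the threshold.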
